A study of Mus musculus with 3 samples.

Results

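Stretches of the mouse genome with many H3K9ac summits close together were described here as 50 kb bins. A bin was chosen, and is called dense below, if it held at least 10 summits of the old HSC library and at least 3 of each of the other 2 libraries. The bins were fixed windows of chromosomes 1 to 19 and X counted from position 0 of mm10. The rule chose 377 bins, of 26323 bins with a summit of any library. The counts of all 3 libraries thus chose the bins, and the counts in them are given as a description.

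H3K9ac, acetylation of lysine 9 of histone H3, is laid down by acetyltransferases and removed by deacetylases and sirtuins, and marks active promoters and enhancers. Where several active promoters lie close together, or a gene carries several active enhancers, summits of the mark stand close together as well. Haematopoietic stem cells (HSCs) renew themselves and give rise to all blood cells, and chromatin changes are among the known features of their ageing. In CUT&Tag an antibody guides a transposase to the mark, so that the DNA beside it is cut and tagged for sequencing.

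The study profiled H3K9ac in HSCs sorted from the bone marrow of wild-type mice, with 1 library labelled old HSC ABC, 1 labelled old HSC and 1 labelled young HSC. The labels do not spell out ABC. Mice labelled old were 18 to 24 months old and those labelled young 2 to 4 months, as read from the o or y of the titles, and 50000 sorted HSCs went into an assay. All 3 groups thus share the wild-type genotype, the tissue and the sort, and the labels do not say how many animals gave the cells.

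The names of the peaks inside the 3 lists disagreed with the labels. The list labelled ABC carried peaks named oHSC-H3K9ac-2, the list labelled old carried oHSC-ABC-H3K9ac-1 and the list labelled young carried oHSC-H3K9ac-1. Libraries are therefore called ABC-labelled, old-labelled and young-labelled, and no direction below can be tied to age or to ABC more firmly than these labels can. Under the names inside the files none of the lists would be young. With 1 library per group no test was possible. The lists held 45340, 108721 and 33208 summits on the chromosomes used in the ABC-, old- and young-labelled libraries. Read depth was unknown. Intervals are exact 95% binomial intervals for counting error alone; how libraries of 1 group vary cannot be seen here.

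As a check of the cell label, the ends of the records of 12 HSC and progenitor markers were searched for summits. A summit lay within 1 kb of a record end of Procr, Meis1, Gata2, Cd34, Ly6a and Runx1 in all 3 libraries. None of these 6 overlapped a dense bin. Markers of other cells were present as well. Of 20 granulocyte and monocyte markers, 12, 15 and 11 had a summit within 1 kb of a record end in the ABC-, old- and young-labelled libraries. Of 15 erythroid markers 3, 6 and 2 did, of 16 B cell markers 2, 7 and 4, and of 18 stroma and endothelium markers 8, 12 and 6. Of 26 control genes of other tissues 2, 12 and 2 did, against 44.1%, 57.6% and 42.4% of all 21631 protein-coding genes. What other cells contributed to the dense bins was not tested.

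Sequences are shown first for the promoters in the bins with most old-labelled summits that carried a summit of all 3 libraries within 500 bp of a record end. Each is the RefSeq window of 250 bases before to 50 after a listed start site (GRCm38.p6), 5′ to 3′, with every CpG in capitals. CpG content is shown because promoters rich in CpG are the class at which H3K9ac is typically found. Kif17 encodes a kinesin motor (chr4:138262001-138262300, plus strand), Trpv2 a cation channel (chr11:62574236-62574535, plus strand), Gon4l a chromatin-associated protein (chr3:88834981-88835280, plus strand) and Zfp740 a zinc finger protein (chr15:102203750-102204049, plus strand).
Kif17: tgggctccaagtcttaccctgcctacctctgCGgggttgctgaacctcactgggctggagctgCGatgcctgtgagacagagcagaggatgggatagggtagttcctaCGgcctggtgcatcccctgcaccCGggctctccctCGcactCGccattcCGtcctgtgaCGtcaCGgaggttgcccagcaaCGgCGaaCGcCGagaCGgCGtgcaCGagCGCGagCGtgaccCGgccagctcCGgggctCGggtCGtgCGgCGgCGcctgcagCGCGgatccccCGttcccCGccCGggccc
Trpv2: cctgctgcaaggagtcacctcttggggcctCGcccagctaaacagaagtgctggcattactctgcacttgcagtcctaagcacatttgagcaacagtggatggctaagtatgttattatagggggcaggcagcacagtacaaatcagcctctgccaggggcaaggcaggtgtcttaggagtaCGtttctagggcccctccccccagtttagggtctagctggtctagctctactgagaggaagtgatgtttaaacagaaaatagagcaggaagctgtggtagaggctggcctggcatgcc
Gon4l: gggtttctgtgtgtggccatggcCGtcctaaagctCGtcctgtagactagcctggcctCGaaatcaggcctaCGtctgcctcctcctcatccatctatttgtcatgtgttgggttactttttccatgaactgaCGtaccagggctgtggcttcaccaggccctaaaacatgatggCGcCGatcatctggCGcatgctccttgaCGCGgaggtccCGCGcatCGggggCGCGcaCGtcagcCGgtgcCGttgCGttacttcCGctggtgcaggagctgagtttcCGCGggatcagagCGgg
Zfp740: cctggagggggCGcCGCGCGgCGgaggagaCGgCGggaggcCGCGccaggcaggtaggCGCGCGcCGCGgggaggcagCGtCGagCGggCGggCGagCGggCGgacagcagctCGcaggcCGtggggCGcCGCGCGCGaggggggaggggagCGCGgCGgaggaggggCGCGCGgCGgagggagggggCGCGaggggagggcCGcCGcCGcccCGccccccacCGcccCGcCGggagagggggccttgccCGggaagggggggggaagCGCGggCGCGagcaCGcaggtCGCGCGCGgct
The windows of Kif17 and Gon4l held 31 and 23 CpGs and that of Trpv2 held 2, and at each of these 3 starts all libraries had a summit within 500 bp. The window of Zfp740 held 54, but its nearest ABC-, old- and young-labelled summits lay 831, 308 and 834 bp from that start. RefSeq lists further starts, whose windows held 6 CpGs at Zfp740 and 2 and 7 at Trpv2.

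The mature microRNAs below are printed because their hairpins lie in dense bins and act in blood cells, with the seed (bases 2 to 8) in capitals. They were picked from 40 hairpins in dense bins, of 1005 with a position in RefSeq, after their values were seen. miR-144 and miR-451a come from 1 cluster and are abundant in red cell precursors, and miR-21a is induced by growth and inflammatory signals.
miR-144-5p: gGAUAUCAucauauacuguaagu
miR-144-3p: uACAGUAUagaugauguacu
miR-451a: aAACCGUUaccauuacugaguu
miR-21a-5p: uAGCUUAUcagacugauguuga
No seed was shared among these 4. The hairpin of Mir144 (chr11:78073005-78073070) lay 113, 68 and 119 bp from the nearest summit of the ABC-, old- and young-labelled libraries, and that of Mir451a (chr11:78073170-78073241) lay 281, 236 and 287 bp away. The hairpin of Mir21a lay farther off, at 1571, 1393 and 1626 bp.

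Within the dense bins the ABC-labelled library had 1824 summits, the old-labelled library 4088 and the young-labelled library 1573. These were 4.02%, 3.76% and 4.74% of the 3 lists. A dense bin held 3 to 11 ABC-labelled summits with a median of 5, 10 to 17 old-labelled summits with a median of 10, and 3 to 9 young-labelled summits with a median of 4. Many bins sat at the edge of the rule. In 194 bins the old-labelled count was exactly 10, in 92 the ABC-labelled count was exactly 3 and in 150 the young-labelled count was exactly 3. A further 370 bins had 9 old-labelled summits and met the rule in both other libraries.

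**Figure D1:**
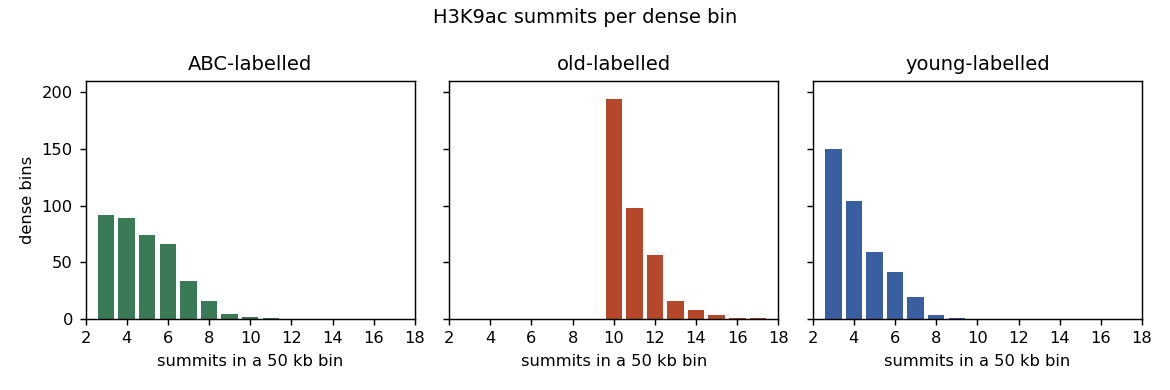
Number of dense bins (y axis) by the number of summits a bin held (x axis), for the ABC-, old- and young-labelled libraries. The old-labelled counts start at the 10 the rule asks for, with 194 bins at that value, and the other libraries start at 3.

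Just inside the rule, bins with 3 ABC-, 10 old- and 3 young-labelled summits covered Actr3, a subunit of the actin-branching Arp2/3 complex, and Phc3, a Polycomb protein. Just outside it, the bin of Vps51, Cdca5 and Fau had 7 ABC-, 9 old- and 10 young-labelled summits, and that of Surf4, Surf6 and Rpl7a had 7, 9 and 9. These bins, full of short housekeeping genes, had more young-labelled summits than any dense bin or as many as the fullest, yet missed the rule by 1 old-labelled summit.

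The number of dense bins changed with the length of the lists. When each list was cut to its strongest 33248 summits, the length of the shortest, only 2 bins met the rule, and no protein-coding gene overlapped either. Counted in those equal-length lists, the 377 bins held 1398 ABC-, 1496 old- and 1573 young-labelled summits, with medians of 3, 4 and 4. The old-labelled lead in the lists as deposited follows in part from the rule, which asks for more old-labelled summits. Once the lists had 1 length the sums lay closer, but the rule shaped these as well. The young-labelled list was not cut and kept at least 3 summits in every dense bin. The ABC- and old-labelled lists fell to 0 in the emptiest. Even so the 377 bins stayed richer than other bins, with means of 3.71, 3.97 and 4.17 per bin in the ABC-, old- and young-labelled libraries, against 1.51, 1.51 and 1.50 in other bins with a summit. The choice of the bins set that difference in part, so it is given with no test.

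For old over young, the ratio of summits was 2.60 in dense bins (95% interval 2.45 to 2.76), against 3.31 (3.27 to 3.35) in other bins. For ABC over old, it was 0.446 (0.422 to 0.472), against 0.416 (0.411 to 0.421). In equal-length lists the 2 ratios in the same dense bins were 0.951 (0.885 to 1.02) and 0.934 (0.868 to 1.01). Both comparisons use the old-labelled library, and the rule itself fixed minimum counts, so nothing is read from these levels.

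Scaled to the length of each list, no dense bin was at least 2-fold higher in old over young (background 7.39%) and 21 were at least 2-fold lower (background 24.2%). For ABC over old, 4 dense bins were at least 2-fold higher (background 20.5%) and 0 at least 2-fold lower (background 10.8%). The background is the share of all bins with a summit in both libraries of the pair. The rule used these counts, and a bin with few summits passes such a fold easily, so the members' counts are set beside the background without a reading.

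A look at counts that did not choose the bins came from leaving out 1 library at a time. Of the 424 bins chosen by the old- and young-labelled counts alone, 377 also had at least 3 ABC-labelled summits, 88.9% (85.5 to 91.7), where 26.8% of all bins with a summit did. Of the 3313 bins chosen by the ABC- and young-labelled counts, 377 had at least 10 old-labelled summits, 11.4% (10.3 to 12.5), against 3.01% of all bins. Of the 588 bins chosen by the ABC- and old-labelled counts, 377 had at least 3 young-labelled summits, 64.1% (60.1 to 68.0), against 16.9%. In each case the library left out was richer in the bins the others chose than in bins at large.

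Most dense bins stood alone. The 377 bins formed 360 runs, of which 344 were single bins, 15 held 2 adjacent bins and 1 held 3. The run of 3, chr10:75650001-75800000, covered Cabin1, an inhibitor of calcineurin, and the neighbouring genes Gstt1, Gstt3 and Ddt. It held 17 ABC-, 33 old- and 16 young-labelled summits. Runs of 2 covered Nfatc1, a transcription factor that calcineurin activates (9, 21 and 7 summits), Zmiz1, a transcriptional coregulator (7, 21 and 7), and Rac2 with Il2rb (14, 20 and 12). Rac2 encodes the small GTPase of blood cells, and Il2rb a receptor chain for interleukin 2 and 15.

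The bins beside dense bins were themselves rich, although the rule did not ask it of them. With dense neighbours left out, bins 50 kb away held means of 2.91 ABC-, 6.19 old- and 2.20 young-labelled summits. At 1000 kb the means were 1.66, 4.06 and 1.19. All other bins, empty ones included, had means of 0.833, 2.00 and 0.605. The surroundings of dense bins thus held more summits than bins at large in all 3 libraries, out to the farthest distance measured.

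**Figure D2:**
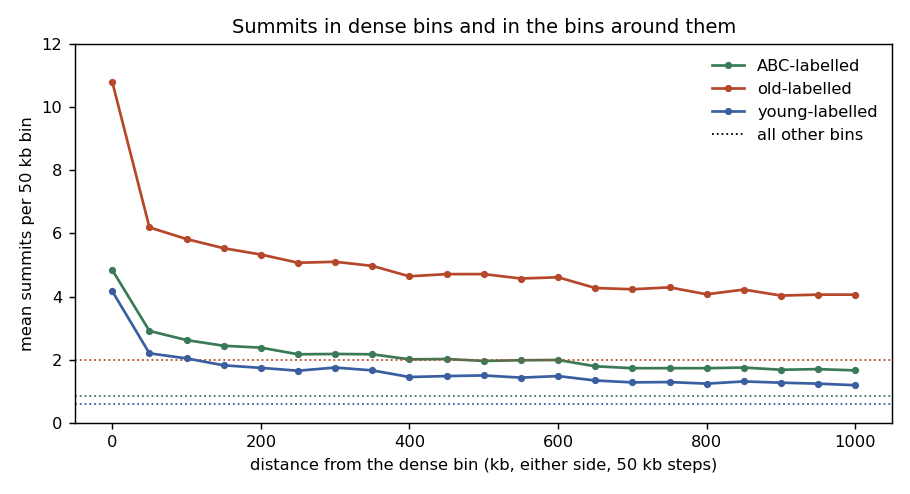
Mean number of summits per 50 kb bin (y axis) by distance from a dense bin in kb (x axis), for the ABC-, old- and young-labelled libraries, with the mean over all other bins as dotted lines. At 1000 kb the old-labelled mean is 4.06, still above the 2.00 of all other bins.

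Dense bins were unevenly spread over chromosomes. Chromosome 11 held 44, which was 2.67% of its bins with a summit, and chromosome 17 held 29, or 2.60%. At the other end, chromosome 16 held 5 (0.557%), chromosome 18 held 4 (0.441%) and X held 3 (0.500%). Counted per 100 protein-coding genes, chromosomes 17 and 11 still had most, at 2.74 and 2.73, and X fewest, at 0.311.

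A total of 841 protein-coding genes overlapped a dense bin, 3.89% of the 21631 in the RefSeq table, and 793 had an end of their record in one, 3.67%. A dense bin overlapped 2.28 genes on average, against 1.20 in other bins with a summit and 1.66 in bins with at least 10 old-labelled summits that missed the rule. Only 14 dense bins (3.71%) overlapped no gene, against 22.0% of other bins. The genes were of ordinary length, with a median of 20.1 kb against 17.3 kb for all genes, and 25.1% were over 50 kb, against 22.8% of all. Of the 841 genes, 826 met 1 dense bin, 12 met 2 and 3 met 3 (Cabin1, Zmiz1 and Mad1l1).

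Summits in dense bins lay mostly inside genes and away from their ends. Within 1 kb of a record end lay 23.6% of ABC-labelled, 18.0% of old-labelled and 27.8% of young-labelled summits, and elsewhere in a record lay 61.7%, 65.9% and 58.0%. Outside genes lay 14.7%, 16.2% and 14.1%, against 26.1%, 31.0% and 23.7% in other bins. The share at record ends in other bins was 22.3%, 12.9% and 28.4%, so dense bins were ahead for the old-labelled library (intervals 16.8 to 19.2 and 12.7 to 13.1) and had overlapping intervals for the other 2. In equal-length lists the share at ends in dense bins was 26.5%, 30.7% and 27.8%, against 27.3%, 28.8% and 28.4% in other bins.

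Where RefSeq lists a start site, the side of the start could be read. Of the summits within 1 kb of a start in dense bins, 72.6% of ABC-, 65.6% of old- and 72.1% of young-labelled summits lay downstream, in the transcribed direction. The median position was 231, 157 and 226 bp downstream. Other bins gave 72.2%, 70.1% and 73.7%, so that summits leaned to the transcribed side in dense and other bins alike.

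Positions within the bins, which the rule did not use, recurred between libraries. Of ABC-labelled summits in dense bins, 82.9% had an old-labelled summit within 500 bp, and of young-labelled summits 85.5% did, against 71.9% and 77.0% in other bins. In bins with at least 10 old-labelled summits that missed the rule the shares were 81.9% and 84.5%, close to those in dense bins. Nearness of this kind rises with the number of summits alone. With lists of equal length they were 59.9% and 58.9% in dense bins, against 55.9% and 55.6% in other bins. Of the 4088 old-labelled summits in dense bins, 912 (22.3%) had a partner in both other libraries and 2091 (51.1%) in neither.

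Old-labelled summits with partners and those without differed in score and place. The 912 with a partner in both other libraries had a median score of 11.7, and 31.9% lay within 1 kb of a record end (28.9 to 35.0). The 2091 with no partner had a median score of 3.61, and 12.1% lay at an end (10.8 to 13.6). Partners in 1 library gave shares between these, at 13.9% with an ABC-labelled partner only and 22.2% with a young-labelled partner only. Outside dense bins the same order held, at 38.4% for summits found in all 3 libraries and 6.85% for those of the old-labelled library alone. A dense bin was thus typically built of a few summits that recurred, with a median of 2 per bin, and a median of 6 weak ones seen in the old-labelled library alone. A score is the authors' own value for a summit and was used to rank within a list.

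**Figure D3:**
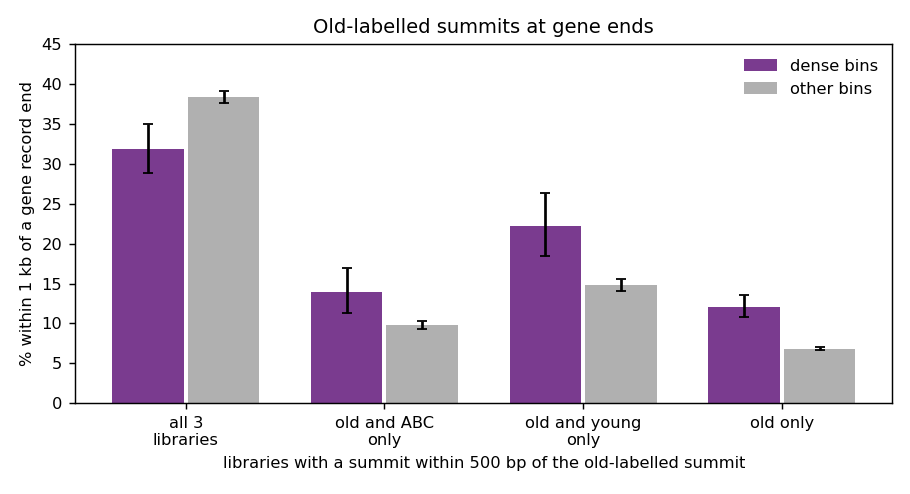
Share of old-labelled summits within 1 kb of an end of a protein-coding gene record (y axis, %) by which libraries had a summit within 500 bp (x axis), in dense and in other bins; error bars are exact 95% binomial intervals. In dense bins the share is 31.9% for summits found in all 3 libraries and 12.1% for summits of the old-labelled library alone.

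Genes with an end in a dense bin were often marked in every library. Of the 793 genes, 430 (54.2%, 50.7 to 57.7) had a summit within 1 kb of an end in all 3 libraries, against a background of 36.8% of all protein-coding genes. In 80 (10.1%) no library had one, against 39.4%. The bins were chosen for summits, so a higher share of marked ends follows in part from the choice.

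At listed start sites, 518 genes with a start in a dense bin could be compared. An old-labelled but no young-labelled summit within 1 kb of a start was found at 95 genes, 18.3%, with a background of 13.6%. The reverse held at 6 genes, 1.16%, with a background of 1.13%. An ABC-labelled but no old-labelled summit was found at 5 genes, 0.965%, with a background of 1.66%, and the reverse at 117, 22.6%, with a background of 13.4%. The rule asks for more old- than ABC- or young-labelled summits, so nothing is read from these counts.

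The genes below had a young- or ABC-labelled but no old-labelled summit at a start, and were named after their values were seen. At Uvrag, which encodes an autophagy protein, the nearest summit lay 845, 1049 and 11 bp from a start in the ABC-, old- and young-labelled libraries. Pip4k2a, a lipid kinase, had 277, 1212 and 277 bp, and Tk1, thymidine kinase, had 1276, 1355 and 116 bp. Ucp2, a mitochondrial carrier, had 288, 1189 and 1190 bp, and Car5a, a mitochondrial carbonic anhydrase, had 73, 3093 and 3059 bp. Car5a and Gm5741 had their nearest old-labelled summit more than 2 kb away, and at the other 6 genes it lay 1049 to 1355 bp away, just past the 1 kb limit.

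The bin with most old-labelled summits, chr10:77750001-77800000, lay inside Tspear, a gene for a secreted repeat protein. It held 6 ABC-, 17 old- and 5 young-labelled summits. Of the 17, 15 lay within 1 kb of an end of short gene records nested in Tspear, such as Gm3233, Gm3238 and Gm9639. The top scores were 5.30, 10.4 and 3.88 in the 3 libraries, and only 1 old-labelled summit recurred in both others. It lay at 77770599, 34 bp from an end of Gm3238. Where such genes are near-identical copies, reads cannot be assigned to 1 of them with certainty.

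In other bins with many old-labelled summits, all or most of the summits lay inside a single long gene. In chr2:29650001-29700000 all 6 ABC-, 15 old- and 4 young-labelled summits lay inside Rapgef1, which encodes an exchange factor for the GTPase Rap1. None of the old-labelled ones was near a record end, and their scores ran no higher than 5.00. Mad1l1, a spindle checkpoint gene, held all 7, 14 and 3 summits of its bin, and Ccdc57 all 5, 14 and 5. Ksr1, a scaffold of the RAF and MAPK pathway, held 4 of 6, 12 of 15 and 3 of 3. The top old-labelled scores were 10.4 in the Mad1l1 bin, 8.28 in the Ccdc57 bin and 7.95 in the Ksr1 bin. In the Ksr1 bin 2 old-labelled summits lay within 1 kb of a record end, and in the Mad1l1 and Ccdc57 bins 0 did. Introns and exons could not be told apart with the gene records at hand.

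Some other bins with many old-labelled summits had summits of all 3 libraries within 1 kb of a gene end. In chr9:21400001-21450000, with 5 ABC-, 16 old- and 4 young-labelled summits, Dnm2 (dynamin 2, which pinches off vesicles) held 2, 9 and 1 of them. Its neighbour Qtrt1, a tRNA modification gene, held 3, 4 and 2. The nearest summits lay 826, 40 and 40 bp from the listed start of Dnm2 and 552, 40 and 195 bp from that of Qtrt1. The Kif17 promoter shown above lies in chr4:138250001-138300000, with 5, 15 and 5 summits. Summits of all 3 libraries lay 429, 429 and 428 bp inside Kif17, at scores of 7.28, 11.2 and 3.20. At its neighbour Sh2d5 they lay 509, 540 and 604 bp inside the record. The summit at Gon4l, 233, 239 and 239 bp inside its record, had scores of 8.93, 28.9 and 17.1.

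Bins with the most young-labelled summits came next; a high young-labelled count by itself allows more positions to recur in all 3 libraries. In chr7:143800001-143850000, with 9 ABC-, 11 old- and 8 young-labelled summits, 5 old-labelled summits recurred in both other libraries. This bin joins Nadsyn1, which makes NAD, and Dhcr7, which catalyses the last step of cholesterol synthesis. The strongest summit lay 41, 258 and 44 bp inside Nadsyn1, at scores of 23.3, 73.7 and 26.4. Inside Dhcr7, about 7 kb from its record end, a summit at 7124, 7064 and 7057 bp had scores of 7.06, 24.5 and 6.68. The bin of Stard10, a lipid transfer gene, and Arap1 had 7, 10 and 8 summits. That of Rassf1, a tumour suppressor, and the hyaluronidase genes Hyal1, Hyal2 and Hyal3 had 6, 11 and 7, of which 7 old-labelled ones lay at gene ends.

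Bins at the extremes of ABC over old, scaled to list length, came next. The highest, chr2:180700001-180750000, held 10 ABC-, 10 old- and 6 young-labelled summits over Slc17a9, a vesicular nucleotide transporter, Dido1 and Gid8. The bins of Tecpr2, an autophagy gene, and of Slc26a11 with Rnf213 followed, with 9 ABC-, 10 old- and 5 young-labelled and with 9, 10 and 3. The lowest, chr11:54950001-55000000, held 3, 14 and 4 summits over Anxa6, an annexin, and Tnip1. Sun1, a nuclear envelope gene, and Dip2a had bins with 3, 13 and 3 each. The extremes of old over young were the Ksr1 bin, at 1.53 on counts scaled to list length, and the Stard10 bin, at 0.382.

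Of the 14 dense bins without a gene, 2 stood out by their counts. The bin chr9:3000001-3050000 held 10 ABC-, 12 old- and 9 young-labelled summits, and its strongest scored 611, 1009 and 752. It holds 2 of the 10 strongest summits of each list. In it 8 old-labelled summits recurred in both others, the most of any dense bin. The other gene-free bin with high counts, chrX:170800001-170850000, held 11, 13 and 8 summits with top scores of 28.3, 35.2 and 11.4. These are the 2 bins that still met the rule in equal-length lists. With a score of at least 5 they were joined by chr11:3150001-3200000, which lies in Sfi1, a centrosome gene. That bin held 6, 10 and 6 summits with such a score, and 8, 12 and 7 in the lists as deposited. Its strongest, near 3185436, scored 33.0, 38.9 and 29.9 and lay about 16 kb from a record end. Duplicated sequence was not analysed here, and its part in these 3 bins was not tested.

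**Figure D4:**
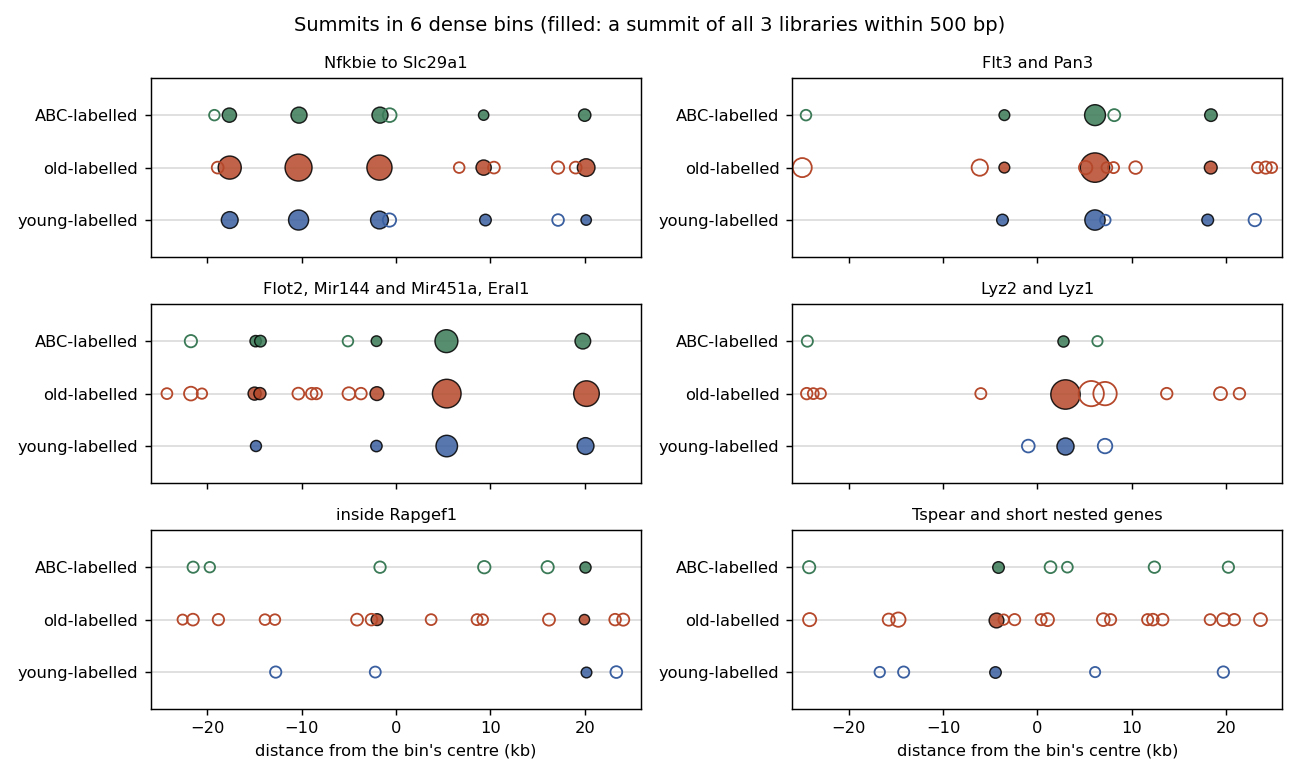
Summits of the ABC-, old- and young-labelled libraries (rows, top to bottom) in 6 dense bins, by distance from the bin's centre in kb (x axis). Larger points have higher scores within their list, and filled points have a summit of all 3 libraries within 500 bp; in the Nfkbie bin 5 of 10 old-labelled summits are filled, in the Rapgef1 bin 2 of 15 and in the Tspear bin 1 of 17.

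Genes of blood cells and of signalling in dense bins were read from 17 lists. Of 447 genes in the lists, 25 (5.59%) overlapped a dense bin, against 3.89% of all protein-coding genes. Each of the 25 had an end of its record in the bin. By list the counts were small, and no list is called different from all genes.

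The NF-kB and inflammatory list had 5 of 36 genes in dense bins (13.9%). Nfkbie encodes an inhibitor that holds NF-kB in the cytoplasm, Tnip1 a ubiquitin-binding inhibitor of the pathway, and Traf1 and Traf3 adaptors of tumour necrosis factor receptors. Irf8 encodes the interferon regulatory factor that directs monocyte and dendritic cell fate. The Nfkbie bin, chr17:45550001-45600000, held 7 ABC-, 10 old- and 7 young-labelled summits. A summit inside Nfkbie recurred at 45557321, 45557359 and 45557359, with scores of 9.24, 34.5 and 15.3. Next to it, summits of all 3 libraries lay at Slc35b2, a sulfate donor transporter (scores of 13.4, 49.4 and 24.5), and at Hsp90ab1, a chaperone (13.4, 42.1 and 17.9). The 3 libraries thus shared their strongest positions in this bin.

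The Irf8 bin, chr8:120700001-120750000, shared fewer positions than the Nfkbie bin. It held 4 ABC-, 10 old- and 3 young-labelled summits. The only position found in all 3 lay about 11 kb outside the Irf8 record, at 120725377, 120725273 and 120725396, with scores of 6.34, 12.6 and 1.97. Even so, the nearest ABC-, old- and young-labelled summits lay 708, 471 and 559 bp from a listed start of Irf8, all within 1 kb. At Nfkbie these distances were 32, 382 and 1659 bp. Traf3 had 3, 10 and 3 summits in its bin, and the one position in all 3 libraries lay 708, 757 and 836 bp outside its record with scores of 1.66, 4.09 and 2.05. At Tnip1 the nearest summit lay 3413, 303 and 1298 bp from a record end, and at Traf1 8409, 184 and 3075 bp.

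Among 30 cytokine and growth factor receptors 2 overlapped dense bins (6.67%), and Flt3 is described here. Flt3 encodes a receptor of multipotent progenitors. Its bin, chr5:147400001-147450000, held 5 ABC-, 12 old- and 5 young-labelled summits, most of them inside Pan3, a subunit of a deadenylase. The strongest summit lay in Pan3, at 147431124, 147431119 and 147431119, with scores of 27.2, 65.0 and 25.3. At the end of Flt3 itself the ABC- and old-labelled libraries had a summit 22 and 417 bp away, with scores of 2.47 and 21.6. The nearest young-labelled summit lay 16455 bp away.

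Of 40 haematopoietic transcription factors only Nfe2, which drives platelet and globin genes, was in a dense bin (4, 12 and 5 summits). A summit 3609, 3456 and 3609 bp from its record end, inside the gene, had scores of 13.6, 35.5 and 10.2. At the record end, 19 bp away, the old-labelled library alone had a summit, with a score of 12.2. Lyl1, Foxp1 and Etv6 reached 10 old-labelled summits in their fullest bin without meeting the rule. Runx1, Ikzf1, Gata2 and Foxo3 were among the factors that reached 9, which is below the rule. Of 30 HSC ageing genes none overlapped a dense bin, and the highest old-labelled count in a bin was 9, at Junb.

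Among 30 histone acetylation enzymes 3 overlapped dense bins. Kat8 encodes an acetyltransferase of histone H4, Hdac7 a class IIa deacetylase and Sirt7 a sirtuin. The Hdac7 bin, chr15:97800001-97850000, held 4 ABC-, 12 old- and 5 young-labelled summits. Its strongest lay inside Hdac7, at 97830803, 97830835 and 97830879, with scores of 11.9, 30.8 and 10.6. Summits also lay 343, 211 and 140 bp from its record end, at scores of 3.61, 5.62 and 1.62. Sirt7 and Mafg, whose product pairs with NRF2 and NF-E2, share a bin with 4, 11 and 6 summits, and near Sirt7 the nearest summits lay 595, 595 and 596 bp from the end. At Kat8 they lay 1033, 50 and 170 bp away, so the ABC-labelled library just missed the 1 kb limit.

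Of 36 ferroptosis genes 4 overlapped dense bins. Aco1, the cytosolic aconitase that also regulates iron, held all 6 ABC-, 11 old- and 4 young-labelled summits of its bin. Gclc, which makes the precursor of glutathione, had 3, 10 and 3 in its bin. Hmox1, haem oxygenase, had 3, 10 and 4, with the nearest summit 8532, 173 and 253 bp from its record end. Lpcat3, an enzyme that places polyunsaturated fatty acids in phospholipids, had 6, 10 and 3 in its bin, and nearest summits at 4523, 458 and 342 bp. The ABC-labelled library thus lacked a nearby summit at Hmox1 and Lpcat3, where both others had one. At Aco1 and Gclc all 3 libraries had one, at 28, 225 and 28 bp and at 754, 387 and 752 bp from a record end.

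Of 40 sphingolipid genes the only one in a dense bin was S1pr4, a receptor for sphingosine 1-phosphate on blood cells. Its bin, chr10:81500001-81550000, held 6, 12 and 7 summits, but none lay inside the part of S1pr4 in that bin. Of these, 6 ABC-, 10 old- and 6 young-labelled summits lay inside Gna15, which encodes a G protein subunit of blood cells, or Gna11. The Gna15 summit 107, 126 and 265 bp from its record end had scores of 10.5, 36.4 and 11.9. That in Gna11, 989, 986 and 1404 bp inside the record, had 11.7, 26.4 and 11.6.

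Of 26 ribosomal protein genes, 2 overlapped dense bins (7.69%), namely Rpl5 and Rpl27. Of 30 respiratory chain genes Sdhc did (3.33%), and of 31 AP-1 and immediate early genes Mafg did (3.23%). The share of all protein-coding genes was 3.89%. Rpl5 had summits 678, 678 and 34 bp from a record end, and Rpl27 850, 222 and 730 bp.

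Markers of mature cells were present too. Of 20 granulocyte and monocyte markers 3 overlapped dense bins, namely Lyz2 (lysozyme), Ngp (a neutrophil granule protein) and Fcgr3 (a receptor for IgG). The Lyz2 bin, chr10:117250001-117300000, held 3 ABC-, 10 old- and 3 young-labelled summits. At the position found in all 3 libraries, 234, 385 and 387 bp inside Lyz2, the scores were 3.33, 87.5 and 16.1. A further ABC-labelled summit inside Lyz2 scored 1.87, 2 further old-labelled ones 42.6 and 35.7, and a further young-labelled one 9.88. The gene next to it, Lyz1, is a close paralog, so reads may be shared between them. Scores depend on the depth of a library, so these values show rank within a list and not levels across lists.

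Vpreb3, a B cell precursor gene, and Il2rb were the B cell and the T and NK cell markers in dense bins. At Vpreb3 the nearest summit lay 5070, 154 and 4962 bp from a record end, so only the old-labelled library had one there. At Il2rb summits of all 3 libraries lay 547, 755 and 702 bp outside the record. No erythroid, stroma and endothelium or other-tissue gene of the lists overlapped a dense bin.

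**Figure D5:**
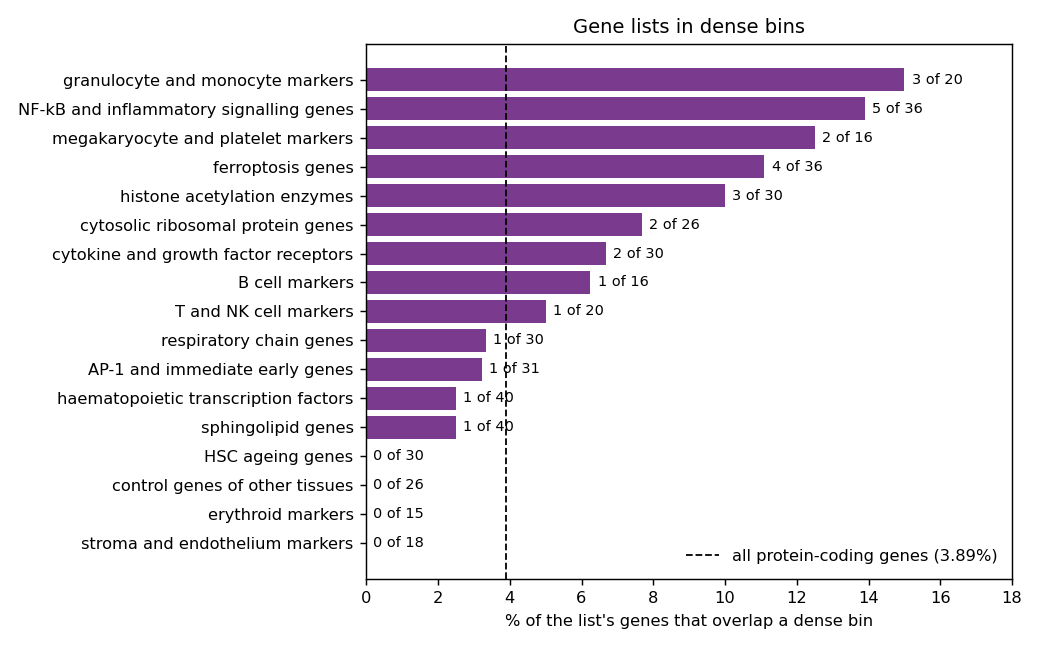
Share of the genes of each list that overlap a dense bin (x axis, %), with the number of genes beside each bar and the share of all protein-coding genes, 3.89%, as a dashed line. Granulocyte and monocyte markers (3 of 20) and inflammatory genes (5 of 36) have the longest bars, each resting on few genes.

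The bin of Mir144 and Mir451a, chr11:78050001-78100000, held 7 ABC-, 13 old- and 4 young-labelled summits. The summits beside the hairpins had scores of 2.34, 8.25 and 3.63, where the median scores in dense bins were 4.18, 4.56 and 4.41. The strongest summits of the bin lay at an end of Eral1, a mitochondrial ribosome assembly gene (33.9, 56.7 and 29.2). Weaker ones recurred at an end of Flot2, a membrane raft gene. No gene of the erythroid list lay in a dense bin.

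Promoters in dense bins had a high CpG content. The median was 18 CpGs per 300 bp window for 669 listed starts in dense bins, against 13 for 20376 starts elsewhere. Among starts with a summit of all 3 libraries within 1 kb the medians were 20 in dense bins and 21 elsewhere, and among starts with none they were 5 and 4. The medians of marked starts were thus close, while 56.8% of starts in dense bins were marked in all 3 libraries, against 38.4% elsewhere.

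Short motifs were searched on both strands of the same windows. GGGCGG, the core of a GC box, was in 59.3% of windows in dense bins, against 46.3% elsewhere, and CGGAAG, an ETS core, in 29.3% against 21.1%. Among windows marked in all 3 libraries the shares were 65.8% against 65.5% and 37.1% against 37.0%. CCAAT was in 37.7% against 38.5%, TATAAA in 5.83% against 12.9% and CACGTG in 8.97% against 7.88%. For these motifs the windows marked in all 3 libraries gave 36.6% against 37.7%, 5.00% against 5.77% and 11.3% against 10.2%. Over all 21045 windows the shares were 46.7% for GGGCGG, 21.3% for CGGAAG, 38.5% for CCAAT, 12.7% for TATAAA and 7.91% for CACGTG. Of the windows printed above, those of Kif17 and Zfp740 hold GGGCGG and that of Gon4l holds CGGAAG. A match is a run of letters and not a binding site.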

How the data were processed

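H3K9ac CUT&Tag summit lists of 3 libraries, 1 per group, were used. The build was mm10 and the tools named were edgeR, MACS2, BWA and Picard, per the submitters' processing notes. For the role, version and options of each tool, and for a control sample, nothing is stated (not given in the sources used here). The lists give 1 bp summits with the authors' deposited score, read as −log10 of the q-value because all 3 start at 1.30, the −log10 of 0.05. Each list was taken as called per library. Scores ranked and filtered summits within a list. Read depth was unknown, so precision is given as exact Clopper-Pearson intervals (95%) on numbers of summits or genes.

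Summits were counted in 50 kb bins with Python 3.11.15, pandas 2.3.3, numpy 2.4.6 and scipy 1.17.1; figures used matplotlib 3.10.9. Gene records, promoter windows and microRNAs came from RefSeq (GRCm38.p6, which shares its coordinates with mm10). All 21631 protein-coding records were used for overlap and record ends; start sites were used for 17274 genes (79.9%), and for 703 (83.6%) of the 841 in dense bins; those of chromosome 18 were not used here. Exons and UTRs were not analysed here, and results on some genes are not reported here. Counting was tested on simulated data.

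The bins, the gene lists and the rules were chosen with earlier results of these data known. Named bins were those with most old-, young- or ABC-labelled summits, the extremes of each ratio, the longest runs and the edges of the rule. Named genes were those holding most summits of such a bin, their neighbours, and listed genes; listed genes without an end summit in all 3 libraries, genes at starts that differed, and the microRNAs were named after their values were seen. Alternatives were shifted bins, a higher score, equal-length lists, merged summits, other minimum counts, other distances and chromosomes 1 to 19; the same bins counted in equal-length lists, and bins without a gene or with the strongest summits left out, were added after the data were seen.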

Additional observations from a re-analysis of the deposited data

Results flagged for a closer look

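A few summits lay outside chromosomes 1 to 19 and X and entered no count above. The ABC-labelled list had 46, the old-labelled list 66 and the young-labelled list 40, each above the fixed limit of 3 used to flag such counts. Of these, 36, 44 and 29 lay on other contigs and 2, 14 and 3 on chromosome Y. The remaining 8 in each list lay on the mitochondrial genome, which carries no histones, with scores up to 78.8, 157 and 73.7. No control sample was at hand to set beside them.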

How the results depend on the processing

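The 377 dense bins and 841 genes became 3 bins and 1 gene with scores of at least 5, and 2 bins and 0 genes in equal-length lists. With 8 and 2 summits asked for they became 2104 and 3868, and with 12 and 4 they became 47 and 118. Old over young was 1.52 (score), 1.24 (equal length, bins chosen anew) and 0.951 (same bins, equal length), and ABC over old 0.750, 1.00 and 0.934. Young-labelled summits with an old-labelled one nearby were 95.2% (score), 94.1% (equal length), 58.9% (same bins), 82.6% (8 and 2), 89.1% (12 and 4), 72.2% (250 bp) and 93.6% (1000 bp). Old-labelled summits at gene ends were 0%, 0%, 30.7%, 16.4% and 22.1% under the first 5 of these settings, and 10.8% within 500 bp and 25.1% within 2000 bp. The held-out share for the young-labelled library became 100% in equal-length lists, where it rests on 2 bins. A higher score and equal lengths leave fewer old-labelled summits by construction. Looser minimum counts can likewise only add bins and genes, and a wider distance can only raise a share. The cause of the other changes was not tested. Shifted bins (402), merged summits (333, all among the 377), chromosomes 1 to 19 (374) and leaving out gene-free bins and those with the strongest summits (363) kept the number of bins within 1.5 times. Unknown depth limits every count. No paired analysis was possible because the labels give 1 library per group and no replicate numbers.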
